A study of Homo sapiens with 9 samples.

Results

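The mitochondrial chromosome appears in the deposited expression table as 17 features, and the 5 long ones, GSHG0045377, GSHG0045380, GSHG0045383, GSHG0045384 and GSHG0045385, are described here out of 46846 features in all. They were chosen by identifier and carry no gene symbol in the table. RNA came from MDA-MB-231, an established human triple-negative breast cancer line, in 3 groups of 3 libraries each. The groups were cells given 10 nM pladienolide B for 6 h, cells given 3.3 µM indisulam for 12 h and cells given the solvent DMSO, labelled 12 h. Pladienolide B inhibits the splicing machinery by binding SF3b, and indisulam leads to degradation of the splicing factor RBM39 through a ubiquitin ligase. All cells were of 1 line, and drug and time differ together between pladienolide B and either other group, so that the effects of drug and time cannot be told apart there.

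Human mitochondrial DNA encodes subunits of the respiratory chain and ATP synthase together with the rRNAs and tRNAs that translate them. The polymerase POLRMT, with TFAM and TFB2M, makes long RNAs from both strands, and cutting at the tRNAs releases the rRNAs and mRNAs between them. Its genes have no introns for the spliceosome, and most of its mRNAs receive a poly(A) tail from MTPAP, whereas the factors that transcribe, process and translate this RNA are encoded in the nucleus. The libraries were made with an mRNA kit, which takes RNA with a poly(A) tail.

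The long features are stretches that hold several genes each, as placed on the GENCODE release 29 annotation of the same build (hg38). GSHG0045377 (chrM:1670-5512, 3843 bases) holds the whole 16S rRNA gene MT-RNR2 and the complex I genes MT-ND1 and MT-ND2. GSHG0045380 (chrM:5584-12142, 6559 bases) holds 8 protein-coding genes, namely MT-CO1, MT-CO2 and MT-CO3 of cytochrome c oxidase (complex IV), MT-ATP8 and MT-ATP6 of ATP synthase (complex V), and MT-ND3, MT-ND4L and MT-ND4 of complex I. GSHG0045383 (chrM:12337-14644, 2308 bases) holds MT-ND5 and, on the minus strand, 94.5% of MT-ND6, both of complex I. GSHG0045384 (chrM:14761-15953, 1193 bases) holds 98.8% of MT-CYB, the cytochrome b of complex III, with the tRNA gene MT-TT. GSHG0045385 (chrM:15998-16490, 493 bases) lies mostly in the noncoding control region, with 5.3% of its bases in a gene, the tRNA gene MT-TP on the minus strand. Reads of the genes within a feature could not be told apart, nor could reads of opposite strands, since the strand setting of the counting is not given in the sources used here.

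**Figure D1:**
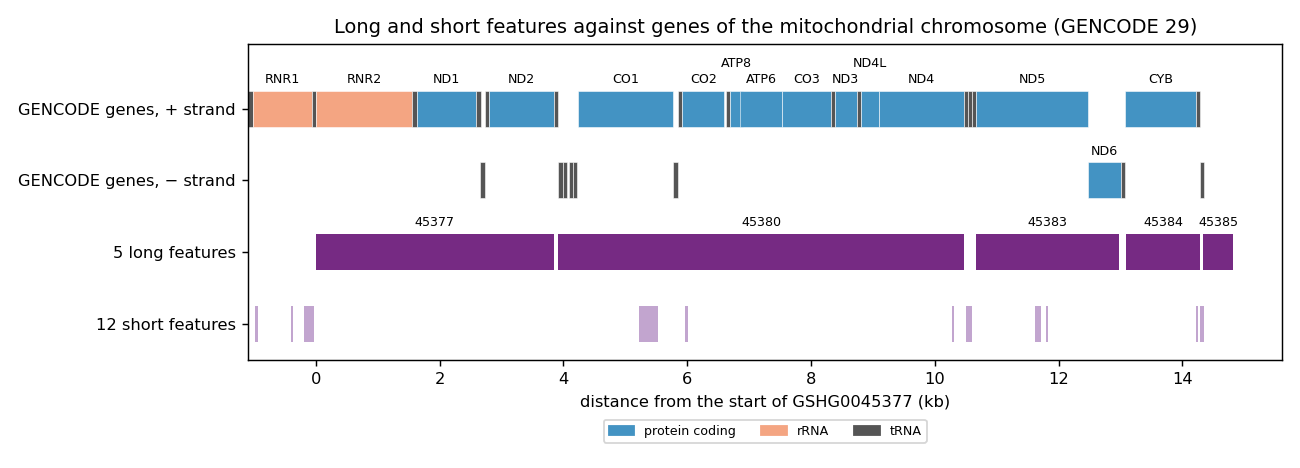
Genes of the mitochondrial chromosome by strand (upper rows, GENCODE release 29) and the deposited features (lower rows) against distance in kb from the start of GSHG0045377. The 5 long features, labelled by the last digits of their identifiers, cover nearly all protein-coding genes, while the 12S rRNA gene RNR1 is touched only by short features; short features are drawn at least 0.04 kb wide.

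The 3′ ends of 6 of the 13 protein-coding genes show why a poly(A) tail matters for these transcripts: the gene ends within its last codon, and the added A bases complete the stop. The last 30 bases of these genes are shown 5′ to 3′ on the plus strand (GENCODE release 29, hg38), with the incomplete stop codon in capitals.
MT-ND1 (in GSHG0045377, chrM:4233-4262): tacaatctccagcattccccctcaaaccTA
MT-ND2 (in GSHG0045377, chrM:5482-5511): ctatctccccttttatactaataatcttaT
MT-CO3 (in GSHG0045380, chrM:9961-9990): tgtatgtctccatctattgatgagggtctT
MT-ND3 (in GSHG0045380, chrM:10375-10404): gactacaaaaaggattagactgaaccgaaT
MT-ND4 (in GSHG0045380, chrM:12108-12137): accccgacatcattaccgggttttcctctT
MT-CYB (in GSHG0045384, chrM:15858-15887): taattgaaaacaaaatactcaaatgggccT
The other 7 genes end in a complete codon, as the neighbours on opposite strands in GSHG0045383 do, with that codon in capitals.
MT-ND5 (plus strand, chrM:14119-14148): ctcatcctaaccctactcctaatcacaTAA
MT-ND6 (minus strand, chrM:14149-14178): attgtaattgagattgctcgggggaatAGG
Between GSHG0045380 and GSHG0045383 lies a stretch of tRNA genes, and the short feature GSHG0045382 is exactly the gene MT-TS2, a serine tRNA, shown for contrast because its RNA has no coding sequence and is not an mRNA.
MT-TS2 (plus strand, chrM:12207-12265): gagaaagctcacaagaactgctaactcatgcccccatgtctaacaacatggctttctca
The deposited value of GSHG0045382, of 59 bases, was between 0.838 and 4.01 in the 9 libraries, near the value of 3 reads (2.48 to 3.87). Its neighbour GSHG0045383, of 2308 bases, held at least 442719 in every library. Not all tRNA features were this low. GSHG0045395, exactly the gene MT-TP, held 25.1 to 101, and GSHG0045394, within MT-TT, held 289 to 655. What sets these levels was not tested. Values in the table are reads divided by 1 size factor per library, here called normalised reads, and the libraries held 59312100 to 83910831 reads.

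Together the 5 long features took a larger share of every drug library than of any DMSO library. With pladienolide B they made up 13.95%, 13.72% and 13.67% of all reads, with indisulam 9.88%, 9.74% and 10.11%, and with DMSO 8.25%, 9.12% and 8.72%. The 3 groups did not overlap, and the pladienolide B libraries stood highest. The means were 13.8 ± 0.151% with pladienolide B, 9.91 ± 0.188% with indisulam and 8.70 ± 0.435% with DMSO (SD, n = 3 each). The summed share was given no test. For the share of each single feature, the two-sided exact permutation test gave p = 0.1 in each pair of groups. No smaller value is possible with 3 libraries in each group, so that test adds nothing to the lack of overlap. The 95% Wilson interval of a single library's share was at most 0.00836 percentage points to either side, so counting error was far below the spread between libraries; it covers counting error only, since reads without molecular identifiers are not independent molecules.

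In normalised reads the sum of the 5 features was 11748651, 12006841 and 11260285 with pladienolide B, against 5037942, 5618832 and 5266999 with DMSO. That is a 2.20-fold difference of means, whereas the sum of all features outside the mitochondrial chromosome differed by 1.31-fold. The authors' normalisation thus gave pladienolide B libraries a larger total, and 26.9% of the difference in totals lay in the 5 features. With indisulam the sum was 6213439, 6203536 and 6417235, 1.18-fold the DMSO mean, beside 1.02-fold outside the mitochondrial chromosome. Pladienolide B over indisulam came to 1.86-fold for the 5 features and 1.28-fold outside. In bulk RNA of this kind, fewer cells and less RNA per cell cannot be told apart, and a share depends on all other transcripts of the library as well.

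**Figure D2:**
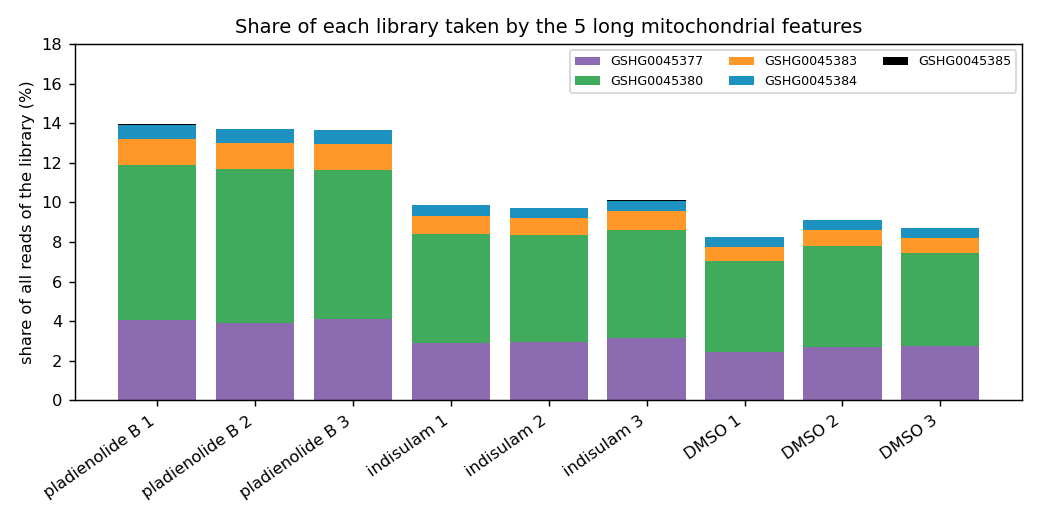
Share of all reads of each library (%, vertical axis) taken by the 5 long features, stacked by feature, for the 9 libraries. The pladienolide B libraries reach 13.67 to 13.95%, the indisulam libraries 9.74 to 10.11% and the DMSO libraries 8.25 to 9.12%.

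GSHG0045380, with the oxidase, ATP synthase and ND3 to ND4 genes, had the highest mean of all 46846 features. It held 6584368, 6773591 and 6192677 normalised reads with pladienolide B, 3469952, 3420874 and 3457440 with indisulam, and 2815089, 3153993 and 2811299 with DMSO. No drug library overlapped a DMSO library, and DMSO replicate 2 was the highest of its group. The difference between pladienolide B and DMSO was 1.16 ± 0.07 on the log2 scale (± SE; limma adjusted p = 6.11e-09), a 2.23-fold ratio of means. Between indisulam and DMSO it was 0.24 ± 0.07 (limma adjusted p = 0.0227), a ratio of 1.18.

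GSHG0045377, with the 16S rRNA, ND1 and ND2 genes, ranked 2nd by mean. Its values were 3422080, 3445177 and 3373178 with pladienolide B, 1823953, 1886491 and 2015443 with indisulam, and 1483425, 1651197 and 1673946 with DMSO. Here DMSO replicate 1 and indisulam replicate 1 were the lowest of their groups, and the groups still did not overlap. Pladienolide B differed from DMSO by 1.09 ± 0.07 (limma adjusted p = 7.39e-09; 2.13-fold), and indisulam differed by 0.25 ± 0.07 (limma adjusted p = 0.0142; 1.19-fold).

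GSHG0045383, the stretch with MT-ND5 and the oppositely encoded MT-ND6, ranked 4th. It was at 1106341, 1146348 and 1080435 with pladienolide B, 575380, 556261 and 590729 with indisulam, and 442719, 502850 and 483247 with DMSO. Again no group overlapped another. Its log2 difference from DMSO was 1.22 ± 0.06 with pladienolide B (limma adjusted p = 9.75e-10; 2.33-fold) and 0.27 ± 0.06 with indisulam (limma adjusted p = 0.00524; 1.21-fold).

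GSHG0045384, the cytochrome b stretch, ranked 6th. With pladienolide B it held 612547, 617153 and 589469 normalised reads, with indisulam 331352, 327864 and 341331, and with DMSO 287849, 300154 and 289552. It had the smallest differences of the 5 features from DMSO, at 1.05 ± 0.05 with pladienolide B (limma adjusted p = 7.23e-10; 2.07-fold) and 0.19 ± 0.05 with indisulam (limma adjusted p = 0.0140; 1.14-fold).

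GSHG0045385, the control region stretch, was far lower and ranked 770th of all features. Its values were 23315, 24571 and 24526 with pladienolide B, 12802, 12046 and 12293 with indisulam, and 8860, 10638 and 8955 with DMSO. DMSO replicate 2 stood above the other DMSO libraries and below every drug library. The differences from DMSO were the largest of the 5 features, 1.35 ± 0.07 with pladienolide B (limma adjusted p = 1.10e-09; 2.54-fold) and 0.39 ± 0.07 with indisulam (limma adjusted p = 0.00102; 1.31-fold).

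**Figure D3:**
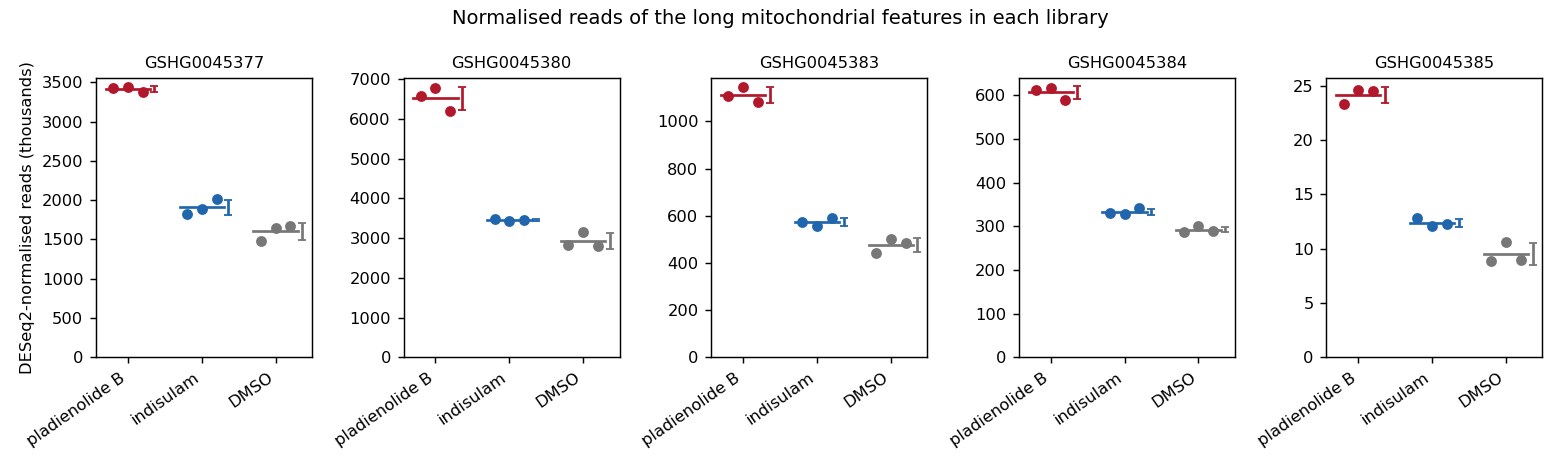
Normalised reads (vertical axes, each from 0 and in units of 1000 reads) of the 5 long features in each library; points are libraries, lines group means and bars ± SD (n = 3). In every panel the pladienolide B points lie above the indisulam points and these above the DMSO points.

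All 5 long features rose with pladienolide B, where 34.3% of the 16846 features tested were called higher at a limma adjusted p under 0.05 (Benjamini-Hochberg) and 35.5% had values above and not overlapping those of DMSO. Their log2 differences lay between 1.05 and 1.35, a range whose lower end 9.37% of tested features reached or passed, and the median of all tested features was −0.01. All 5 rose with indisulam too, where 14.5% of tested features were called higher, 27.4% did not overlap on the higher side and 30.9% reached the smallest of the 5 differences. Both comparisons use the same DMSO libraries. Between the drugs, pladienolide B over indisulam was 0.84 to 0.96 on the log2 scale for the 5 features, with limma adjusted p from 4.67e-09 to 9.62e-08 and 5 of 5 called, where 34.7% of all features were called higher and 35.6% did not overlap.

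How the libraries are scaled moved the size of these differences, and the direction was higher in the drug groups under each scaling run. With the same total per library, the 5 features stood 0.58 to 0.88 higher with pladienolide B than with DMSO (limma, 5 of 5 called, 16.2% of all features), while the median of all features moved to −0.48 and 53.9% of features were called lower. Set to the same total outside the mitochondrial chromosome they stood 0.66 to 0.96 higher (5 of 5 called, 19.0% of all). With TMM scaling they stood 0.95 to 1.25 higher (5 of 5 called), where 5082 of the 16846 features tested were called higher. For indisulam the same total gave 0.14 to 0.33 (5 of 5 called, where 10.2% of all features were called higher and 15.1% lower). TMM scaling gave 0.15 to 0.35 with 2 of 5 called, GSHG0045383 and GSHG0045385, where 1800 of the 16846 were called higher. Between the drugs the same total left the 5 features 0.42 to 0.54 higher with pladienolide B (5 of 5 called, where 17.9% of all features were called higher and 50.4% lower). The indisulam call of GSHG0045380 was the least stable, lost in 8 of 19 alternatives, among them the fits without any filter, without DMSO replicate 1 or 3 and without any 1 of the indisulam libraries. GSHG0045377 and GSHG0045384 lost theirs in 4 each: TMM scaling, no filter, without DMSO replicate 1 and without indisulam replicate 3.

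**Figure D4:**
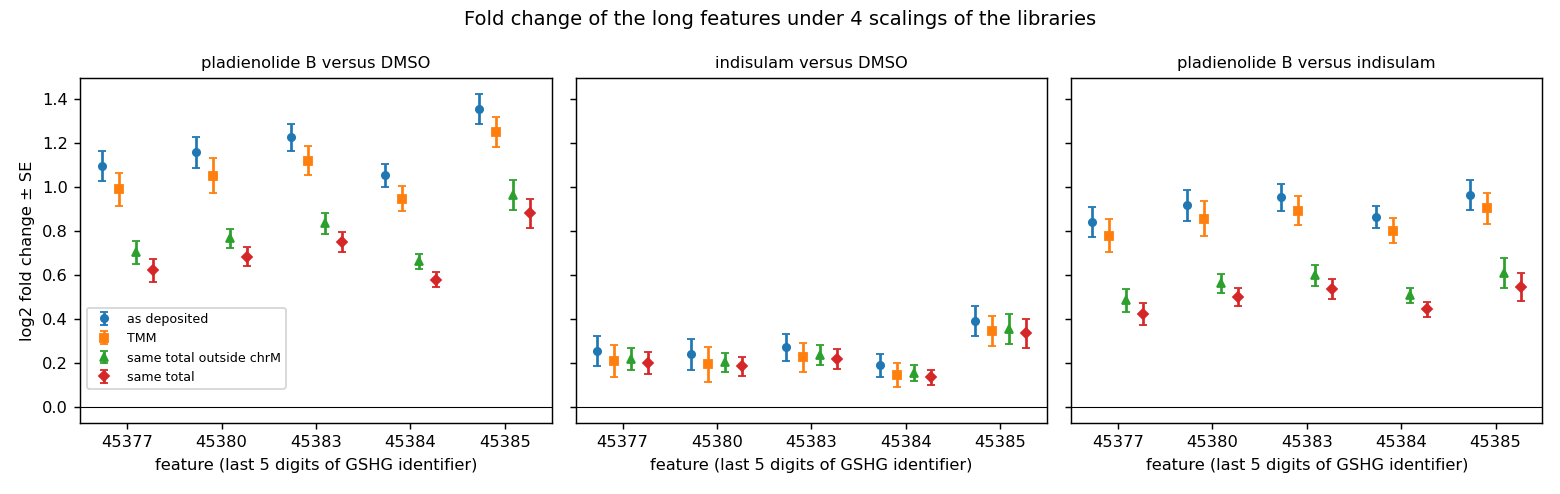
Log2 fold change (vertical axis, ± SE) of the 5 long features in the 3 comparisons, with 4 scalings of the libraries in different markers. All points lie above 0; pladienolide B against DMSO spans 1.05 to 1.35 as deposited and 0.58 to 0.88 with the same total per library, and indisulam against DMSO spans 0.19 to 0.39 as deposited.

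Per kb of feature length, levels fell into a clear order with a few close neighbours. With pladienolide B the normalised reads per kb averaged 993578 for GSHG0045380, 888233 for GSHG0045377, 508290 for GSHG0045384, 481387 for GSHG0045383 and 48961 for GSHG0045385. In the same order they were 525907, 496651, 279561, 248754 and 25112 with indisulam. In DMSO they were 446226, 417085, 245196, 206357 and 19238. The first pair, GSHG0045380 and GSHG0045377, overlapped between libraries with indisulam and with DMSO, and was apart with pladienolide B. For GSHG0045384 and GSHG0045383 it was the reverse, with overlap only with pladienolide B. GSHG0045385 stood 9.83-fold, 9.91-fold and 10.7-fold below GSHG0045383 with pladienolide B, indisulam and DMSO.

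Within the sum of the 5 features, the composition shifted little. GSHG0045380 made up 55.8 ± 0.736% with pladienolide B, 55.0 ± 0.998% with indisulam and 55.1 ± 1.52% with DMSO, and GSHG0045377 29.3 ± 0.642%, 30.4 ± 1.03% and 30.2 ± 1.37% (SD, n = 3 each). These shares overlapped between the groups. The ND5 and ND6 stretch GSHG0045383 made up 9.52 ± 0.0923% with pladienolide B, 9.14 ± 0.156% with indisulam and 8.97 ± 0.195% with DMSO, and the pladienolide B values overlapped neither other group. The cytochrome b stretch GSHG0045384 went the other way, at 5.20 ± 0.0498% with pladienolide B, 5.31 ± 0.0246% with indisulam and 5.52 ± 0.187% with DMSO, with no overlap between any groups. GSHG0045385 held 0.207 ± 0.00989%, 0.197 ± 0.00771% and 0.178 ± 0.00989% with pladienolide B, indisulam and DMSO, with no overlap of either drug with DMSO.

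The ratios of one long feature to another do not depend on library scaling, and 10 pairs were compared in each of 3 comparisons. The ratio of GSHG0045384 to GSHG0045385 differed most, at 25.1 with pladienolide B, 26.9 with indisulam and 30.9 with DMSO. On the log2 scale these are differences from DMSO of −0.30 with pladienolide B and −0.20 with indisulam. The ratio of GSHG0045383 to GSHG0045384 was 1.83 with pladienolide B, 1.72 with indisulam and 1.63 with DMSO, with no overlap between any groups. The 10 ratios are built from the same 5 features, so they are not independent of one another. In all, 5 of 10 ratios did not overlap between pladienolide B and DMSO, 3 between indisulam and DMSO and 3 between the drugs. Each of those had p = 0.1 in a two-sided exact permutation test, the lowest possible here, and a Benjamini-Hochberg value of 0.273 over the family, so no ratio passed a threshold of 0.05.

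The 12 short features of the mitochondrial chromosome held little, since the 5 long ones carried 99.77 to 99.85% of the signal of its 17 features in every library. The short features include 3 stretches of the 12S rRNA gene MT-RNR1, and 6 lie inside a long feature. Those 3 stretches cover 2.8%, 3.2% and 13.2% of MT-RNR1, and the rest of that gene lies in none of the 17 features. The tool that counted reads is not recorded, so how reads shared by a short and a long feature were assigned is not known here. The short feature with the highest mean, GSHG0045391 (chrM:13292-13379, within MT-ND5), was at 5168, 5009 and 6536 normalised reads with pladienolide B, 3191, 3537 and 3835 with indisulam and 2436, 3451 and 3538 with DMSO. Of the 10 that passed the filter on the mean, 10 rose with pladienolide B, by 0.48 to 1.28 on the log2 scale. With the same total per library 6 were called. Over all features 34.3% were called higher, and 16.2% with the same total. With indisulam limma called none of the 10, at −0.23 to 0.41, where 14.5% of all features were called higher. At an unadjusted p under 0.05, 1 was higher, and edgeR and DESeq2 called 0. The tRNA feature GSHG0045381, within MT-TH, was at 0 to 3.01 and, like GSHG0045382, did not pass the filter.

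Features named for nuclear copies of mitochondrial sequence, all of them MTRNR2L genes, held almost none of this signal. Of 10 features named for MTRNR2L genes, nuclear relatives of the 16S rRNA gene, 6 were at 0 in all 9 libraries. The highest, MTRNR2L8 // MIR4485, averaged 43.1 with pladienolide B, 26.9 with indisulam and 15.0 with DMSO, and MTRNR2L2 averaged 24.9, 11.4 and 12.2. Summed over the libraries, all 10 came to 0.000585% of the signal of the long features. Reads that match both a copy and the mitochondrial chromosome were assigned by a rule not recorded in the sources used here.

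Genes of the nucleus that serve mitochondrial transcription were mostly lower with pladienolide B. Of 9 such genes, 1 rose and 7 fell (median −1.11 on the log2 scale), beside 34.3% of all features higher and 35.5% lower. With the same total per library 0 were higher and 8 lower, beside 16.2% and 53.9% of all features. POLRMT, the mitochondrial RNA polymerase, fell to 711 ± 110 with pladienolide B, against 2008 ± 104 with DMSO (−1.51 ± 0.10; limma adjusted p = 1.33e-08), and TEFM, its elongation factor, fell by 1.68. TFAM, which packages the DNA and binds its promoters, averaged 11882 ± 565 with pladienolide B and 8697 ± 456 with DMSO (0.45 ± 0.06, limma adjusted p = 8.42e-06). However, TFAM stood at −0.02 with the same total per library. With indisulam 2 of the 9 rose and none fell in limma, beside 14.5% of all features higher and 12.4% lower. At an unadjusted p under 0.05, 2 were lower, and edgeR and DESeq2 each called 1 lower. The risen genes were TFB2M, the promoter melting factor, at 0.65, and the termination factor gene MTERF1 at 0.51. With the same total 1 of the 9 was higher, beside 10.2% of all features, and MTERF1 was at 0.46 (limma adjusted p = 0.0626). POLRMT was at 1988 ± 77.0 with indisulam and 2008 ± 104 with DMSO (−0.01 ± 0.10; limma adjusted p = 0.932), and TFAM at 0.15 ± 0.06 (limma adjusted p = 0.0686).

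The genes for processing and modification of mitochondrial RNA were split. With pladienolide B 4 of 27 rose and 15 fell (median −0.25), beside 34.3% of all features higher and 35.5% lower. With the same total per library 3 were higher and 23 lower (median −0.73), beside 16.2% and 53.9% of all features (median −0.48). TRMT10C, a subunit of the mitochondrial RNase P that cuts at the tRNAs, reached 7998 ± 378 with pladienolide B, against 2562 ± 198 with DMSO (1.64 ± 0.07; limma adjusted p = 1.91e-10), and FASTKD5, which acts on junctions without a tRNA, rose by 1.04. The rRNA methyltransferase gene NSUN4 fell by 1.87 and the tRNA methyltransferase gene TRMT5 by 1.37. With indisulam 6 of 27 rose and 4 fell, beside 14.5% of all features higher and 12.4% lower. TRMU, which thiolates tRNAs, was at 0.65 and TRMT10C at 0.47. GRSF1, a protein of RNA granules, was at −0.47 and the methyltransferase gene TRMT61B at −0.88.

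Of 7 genes for poly(A) tails, stability and decay of mitochondrial RNA, 3 rose and 3 fell with pladienolide B (median 0.07). Over all features 34.3% rose and 35.5% fell. With the same total 2 of the 7 were higher and 4 lower, beside 16.2% and 53.9% of all features. LRPPRC, which with SLIRP protects mitochondrial mRNAs and favours their polyadenylation, averaged 25476 ± 1745 with pladienolide B and 20436 ± 968 with DMSO (0.32 ± 0.06; limma adjusted p = 0.000544), but stood at −0.16 with the same total. SLIRP rose by 0.79 and REXO2, an oligoribonuclease, by 0.67. MTPAP, the poly(A) polymerase, was at 1345 ± 187 with pladienolide B and 1274 ± 24.2 with DMSO (0.07 ± 0.09; limma adjusted p = 0.523), and at −0.40 with the same total. PNPT1, the nuclease of the mitochondrial degradosome, fell by 0.27 and the deadenylase gene PDE12 by 0.32. With indisulam none of the 7 rose and 2 fell in limma, beside 14.5% of all features higher and 12.4% lower. At an unadjusted p under 0.05, 2 were higher, while edgeR called 0 higher and DESeq2 called 1. LRPPRC fell to 14302 ± 786 with indisulam, against 20436 ± 968 with DMSO (−0.52 ± 0.06; limma adjusted p = 8.39e-05), and REXO2 fell by 0.22. MTPAP was at 0.25 ± 0.09 with indisulam (limma adjusted p = 0.0593) and PNPT1 at −0.13 ± 0.09 (limma adjusted p = 0.292).

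Nuclear genes for the partner subunits of the respiratory complexes were mostly higher with pladienolide B. Of the complex I genes 32 of 34 rose and 1 fell (median 0.78), of complex III 8 of 8 rose (0.80), of complex IV 11 of 11 (0.85) and of ATP synthase 17 of 17 (0.77), where 34.3% of all features rose. With the same total per library the counts higher and lower were 26 and 2 for complex I and 5 and 0 for complex III. They were 11 and 0 for complex IV, and 16 and 0 for ATP synthase. That scaling called 16.2% of all features higher and 53.9% lower with pladienolide B against DMSO. NDUFS6 rose by 1.06, UQCRQ by 1.09, COX6A1 by 1.00 and ATP5ME by 0.94, while the complex I gene NDUFV3 fell by 0.72. Medians of these lists lay below the smallest difference of the 5 mitochondrial features in that comparison, 1.05. With indisulam 14 of 34 complex I genes rose and 2 fell, 3 of 8 complex III genes rose and 2 fell, 3 of 11 complex IV genes rose and 2 of 17 ATP synthase genes rose, with medians of 0.16, 0.17, 0.16 and 0.05 against 0.05 over all features. Of all features 14.5% rose and 12.4% fell with indisulam, and 10.2% and 15.1% with the same total. With the same total the indisulam counts were 6 higher and 3 lower for complex I and 0 and 2 for complex III. They were 1 and 0 for complex IV, and 0 and 3 for ATP synthase. NDUFS4 was at 0.42, and in complex III UQCR11 was at 0.22 and UQCRC1 at −0.34.

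**Figure D5:**
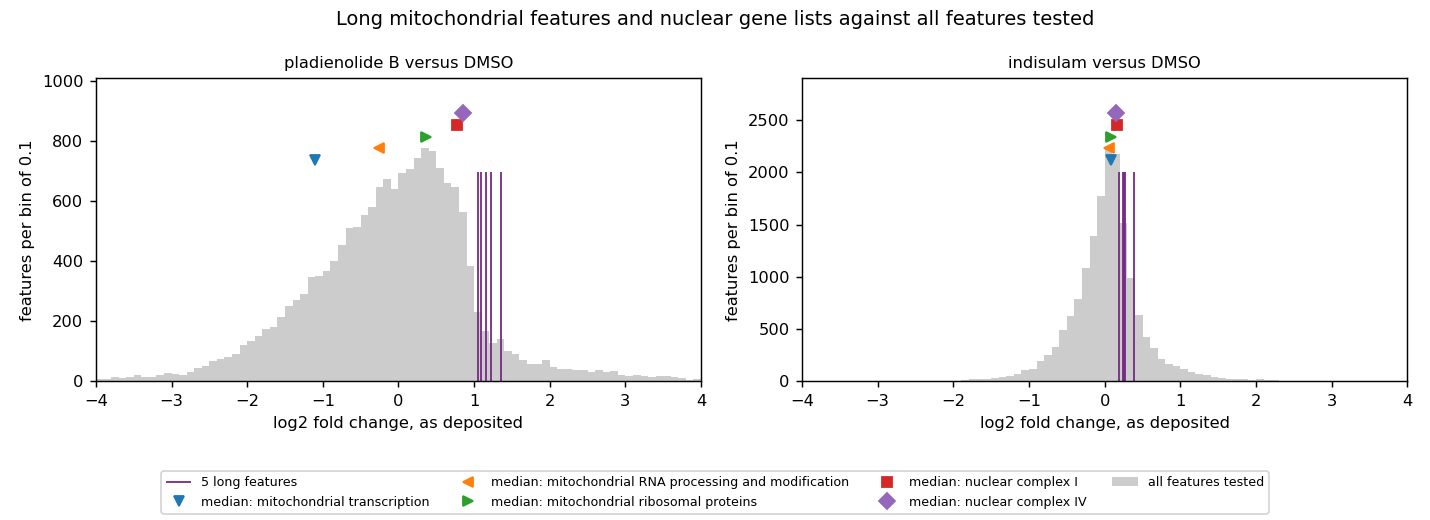
Histograms of log2 fold changes as deposited (horizontal axis, bins of 0.1; vertical axis, number of features) for all 16846 features tested, with the 5 long mitochondrial features as vertical lines and medians of 5 nuclear gene lists as markers at arbitrary heights; values beyond ±4 are not drawn. With pladienolide B the lines lie at 1.05 to 1.35, right of every list median shown, and the transcription list lies at −1.11; with indisulam the lines lie at 0.19 to 0.39.

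Of 74 genes for mitochondrial ribosomal proteins, which build the ribosome around the 12S and 16S rRNAs, 52 rose and 10 fell with pladienolide B (median 0.36), but 21 were higher and 33 lower with the same total per library (median −0.11). Over all features 34.3% rose and 35.5% fell, and 16.2% and 53.9% with the same total. MRPL36 rose by 1.15 and MRPS31 fell by 1.27 on the log2 scale. With indisulam 17 of the 74 rose and 8 fell (median 0.09), beside 14.5% and 12.4% of all features. With the same total 9 were higher and 14 lower, beside 10.2% and 15.1% of all features. MRPL30 was at 0.45 and MRPL2 at −0.66 with indisulam. Of 14 genes for upkeep of the mitochondrial DNA, 6 were higher and 6 lower with pladienolide B (median −0.13). The shares over all features were 34.3% and 35.5%. With the same total 4 of the 14 were higher and 9 lower. SSBP1, which binds single-stranded mitochondrial DNA, rose by 0.81 and POLG2, the accessory subunit of its polymerase, fell by 1.28. With indisulam 3 of the 14 rose and 2 fell, beside 14.5% and 12.4% of all features. The nuclease gene EXOG was at 0.74 and the primase gene PRIMPOL at −0.37. Among 10 regulators of mitochondrial gene expression, 1 rose and 5 fell with pladienolide B, beside 34.3% and 35.5% of all features. The same total per library gave 1 higher and 7 lower. The transcription factor gene MYC rose by 2.53, and NRF1 and ESRRA, activators of respiratory genes, fell by 1.80 and 1.38. With indisulam 4 of these 10 rose and 1 fell, against 2 and 1 with the same total. Of all features 14.5% rose and 12.4% fell. The coactivator gene PPARGC1A was at 0.76 and ESRRA at −0.42 with indisulam. Set against indisulam, pladienolide B gave 1 higher and 8 lower of the 9 transcription genes (0 and 8 with the same total). It gave 31 higher and 1 lower of 34 complex I genes. For complex IV and ATP synthase, 11 of 11 and 17 of 17 were higher. Over all features 34.7% were higher and 35.6% lower in that comparison, and 17.9% and 50.4% with the same total.

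Across the 9 libraries many nuclear genes followed the summed long features. Of 11720 features with a symbol, a mean of at least 100 and a place outside the mitochondrial chromosome, 1534 had a Pearson r above 0.95 with the log2 sum. The 6 most alike were AMIGO3, GADD45B, SNRPD3, PRDX6, FTL and ADI1, with r between 0.997 and 0.998 over 9 libraries that fall into 3 groups. AMIGO3, a membrane adhesion gene, averaged 3459 with pladienolide B, 1221 with indisulam and 908 with DMSO, and the stress gene GADD45B 27657, 6263 and 4410. PRDX6, a peroxiredoxin, averaged 41320, 25726 and 22826. The libraries share their size factors and group structure, so the likeness is a description of these libraries; the feature carrying the symbol FTL spans an interval that overlaps other genes.

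All 7 markers of a mesenchymal breast line were present, with a lowest value of 4581 in any library. VIM averaged 177152 with pladienolide B, 117783 with indisulam and 127792 with DMSO. Luminal markers were mixed. The hormone receptor genes ESR1 and PGR were at most at 2.04 and FOXA1 at most at 7.33. Present were KRT8 (44748 to 83661), ERBB2 (5102 to 5977), EPCAM (961 to 1895) and GATA3 (381 to 1599). Among markers of other cell types, no leukocyte marker passed 93.3. Fibroblast markers reached 1190 (COL1A2), with PDGFRA at most 3.66.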

How the data were processed

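The values are a deposited signal for each feature in each library, that is reads divided by 1 size factor per library, made by the authors with DESeq2, per the table's name and the submitters' processing notes, which also name FastQC, Picard, SAMtools, STAR 2.7.5a and hg38. RNA was column purified with DNase and made into stranded libraries with an mRNA kit, per the labels' protocols. Neither the tool that counted reads nor its use of strand is recorded in the sources used here. In each library 100% of the values were whole multiples of 1 read within 0.01, so reads were recovered. The members and gene lists were chosen with earlier results of these data known.

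Differences were tested with limma 3.58.1 in R 4.3.3, on log2(value + 1), with all 9 libraries in 1 fit with a mean trend, two-sided, Benjamini-Hochberg adjustment over 16846 features with a mean of at least 10 and a threshold of 0.05; all 5 long features passed that filter. Fold changes on this scale understate changes of low features. Shares of single features were tested by exact permutation over libraries, and the summed share was not tested. Library labels do not state separate cultures, so p-values measure the spread between these libraries; no 2 libraries of a group agreed within sampling noise (chi-square per feature at least 8.74). The fit was tested on simulated data. Alternatives were other scalings, filters and pseudocounts, edgeR 4.0.16 and DESeq2 1.42.0 on recovered reads, a replicate block, the 2 groups alone and leaving out each library. Of each nuclear list, up to 2 called genes per drug and direction with the largest change could be named, with POLRMT, TFAM, LRPPRC, PNPT1 and MTPAP whatever their values. Of 29 processing genes listed, 27 were matched, as were 34 of 37 for complex I and 8 of 9 for complex III. Some genes that this rule or the marker lists hold are not reported here.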

Additional observations from a re-analysis of the deposited data

How the results depend on the processing

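With pladienolide B, against DMSO or indisulam, 5 of 5 long features were called higher in each of the 19 alternatives run. Over all features 2733 to 6081 were called higher in those fits against DMSO and 3014 to 6139 against indisulam. Against DMSO, indisulam gave 5 of 5 as reported, but 2 with TMM scaling and 2 with no filter. Over all features these settings called 1800 and 2024 higher. When 1 library was left out, indisulam gave 2 to 5, with 2 given without DMSO replicate 1 and without indisulam replicate 3. No result reversed. The cause of the lost calls was not tested, beyond that no filter raised the features tested to 27064. The log2 ratio of the summed share was 0.67 for pladienolide B against DMSO, and 0.75 both over features outside the mitochondrial chromosome (0.748) and over features with a symbol (0.754); against indisulam it was 0.48, and 0.539 and 0.543 over the same denominators. A denominator that leaves out the long features gives larger ratios by construction. edgeR and DESeq2 on recovered reads called 5 of 5 in each comparison. Over all features they called 5268 and 5861 higher with pladienolide B and 1925 and 2855 with indisulam, each against DMSO. With the replicate number as a block, 5 of 5 were called in each comparison, and over all features 3548 were higher and 2739 lower with indisulam, against 2437 and 2095 without it. The block also gave a call to the short feature GSHG0045373 with indisulam (0.19 on the log2 scale; limma adjusted p = 0.0427, against 0.113 without the block). Same-numbered libraries deviated together with r from 0.00266 to 0.128, over 0.1 in 3 of 9 pairs, and a library correlated best with its own number in 16 of 18 checks, a hint from the data and not the design. Over all features, the indisulam count higher was 1620 when DMSO replicate 2 was left out and 1565 when indisulam replicate 3 was. Depth does not limit the long features, but the tRNA features GSHG0045381 and GSHG0045382 stand near the limit of 3 reads.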
